A study of Mus musculus with 7 samples.

Results

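The miR-30 family was measured by 7 assays among the 306 miRNA assays of a real-time PCR plate. Members were all assays named miR-30 with a letter from a to e, with or without an arm or a star. They were the 5 guide forms miR-30a-5p, miR-30b, miR-30c, miR-30d and miR-30e-5p and the 2 passenger forms miR-30a-3p and miR-30e*. RNA came from wound edges of C57Bl6 mice, a common inbred strain, on day 3 after wounding. The 4 non-ischemic samples came from wounds with normal blood supply. The 3 ischemic samples came from wounds in a bipedicle flap, in which skin is cut free along both sides, and its middle is poorly supplied with blood. No genetic change or drug is named for either group, the labels give no age, and they do not say whether each sample is a separate animal, so p-values reflect sample-to-sample spread that could be in part technical.

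A miRNA hairpin is cut into a short duplex, and the strand loaded into Argonaute is called the guide and the other the passenger. The guide recognises messages mainly through its seed, bases 2 to 8, so forms with a shared seed can act on the same messages. In the heart the guides are known to restrain connective tissue growth factor, a matrix-inducing protein, together with miR-133. In human cells miR-30b and miR-30c are known to act on the Notch ligand DLL4 of sprouting vessels and miR-30a on the autophagy protein Beclin 1. The strands called passengers here also accumulate, and miR-30e* is known to act on the NF-kB inhibitor IkBa in human glioma cells.

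RefSeq entries (build GRCm38.p6) were found for 5 of the 7 assays and are shown because the forms split by seed and by arm. The star form of miR-30e is the 3p strand. Capitals mark the seed. The first 3 sequences, those of the guides, share GUAAACA and the last 2, those of the passengers, share UUUCAGU.
miR-30a-5p: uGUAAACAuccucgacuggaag
miR-30c: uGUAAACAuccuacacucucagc
miR-30e-5p: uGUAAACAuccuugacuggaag
miR-30a-3p: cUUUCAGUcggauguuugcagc
miR-30e*: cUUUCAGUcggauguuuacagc
The strands of Mir30a lie on the plus strand at chr1:23272274-23272295 for miR-30a-5p and chr1:23272315-23272336 for miR-30a-3p. Those of Mir30e lie on the minus strand at chr4:120772660-120772681 for miR-30e-5p and chr4:120772618-120772639 for miR-30e*. miR-30c is encoded at Mir30c-2, on the plus strand at chr1:23291714-23291736, and at Mir30c-1, on the minus strand at chr4:120769584-120769606, so its assay reads both genes. Mir30a neighbours Mir30c-2, Mir30e neighbours Mir30c-1 within the span of the gene Nfyc, and Mir30b neighbours Mir30d. Whether these lie in exons or introns was not examined.

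Counted from the 5′ end, miR-30a-5p and miR-30e-5p differed at 1 position (C13U), and miR-30a-3p and miR-30e* at 1 position (G18A). miR-30a-5p and miR-30c were identical over the first 12 bases and differed at 5 of the 22 positions compared. How well the assays tell such near-identical forms apart was not tested. The hairpins of the precursors measured on both arms are shown with the strands in capitals, the guide first.
Mir30a: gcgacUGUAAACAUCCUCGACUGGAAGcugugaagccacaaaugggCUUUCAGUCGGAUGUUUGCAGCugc
Mir30e: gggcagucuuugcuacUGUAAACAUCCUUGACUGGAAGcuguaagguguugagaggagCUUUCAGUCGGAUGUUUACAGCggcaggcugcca

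A threshold cycle (Ct) below 35 was taken as detection, and 91 to 106 miRNAs reached it per sample. The Ct of 5S rRNA, the reference RNA, was 14.5 to 14.8 in non-ischemic and 14.5 to 14.6 in ischemic samples. Of 7 keratinocyte miRNAs listed to check the tissue, 5 were among the tested miRNAs, while miR-200a and miR-141 had a Ct above 35 in every sample. Ischemic sample 3 stood apart. Its correlation with the others over 76 miRNAs was 0.756 to 0.830, against 0.908 to 0.977 among the others, where miRNAs are not independent replicates. Group differences, ratios and likeness are therefore also given without it. PCR of bulk tissue cannot tell fewer cells of a type from less RNA per cell.

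All 7 members were detected, 6 of them in all 7 samples, and miR-30e-5p in 6, with a Ct of 35.5 in non-ischemic sample 2. Levels are given as ppm of 5S rRNA, which is parts per 1000000, from the deposited ratio, which assumes that each cycle doubles the product. The order of mean levels was miR-30c (28.4 ppm), miR-30b (21.0), miR-30a-3p (15.3), miR-30a-5p (7.67), miR-30d (3.18), miR-30e* (2.21) and miR-30e-5p (1.43 ppm). Since assays may differ in efficiency, this order is one of assay readings and may not be one of molecules. By mean log2 level miR-30c stood in place 13 and miR-30e-5p in place 84 among the 306 miRNAs.

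Neighbours in this order were mostly kept apart in each sample. miR-30c read above miR-30b in 7 of 7 samples, by 0.39 ± 0.24 on the log2 scale (SD, n = 7), and miR-30a-5p above miR-30d in 7 of 7, by 1.34 ± 0.37. The mean difference between miR-30d and miR-30e* was about as large as its SD (0.58 ± 0.57, miR-30d higher in 5 of 7). miR-30e* exceeded miR-30e-5p in 7 of 7 samples, though the mean difference of 0.67 was below its SD of 0.75. miR-30b and miR-30c made up 54.7% to 65.1% of the summed reading of the 7 assays, and the passengers 18.02% to 24.87%.

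**Figure D1:**
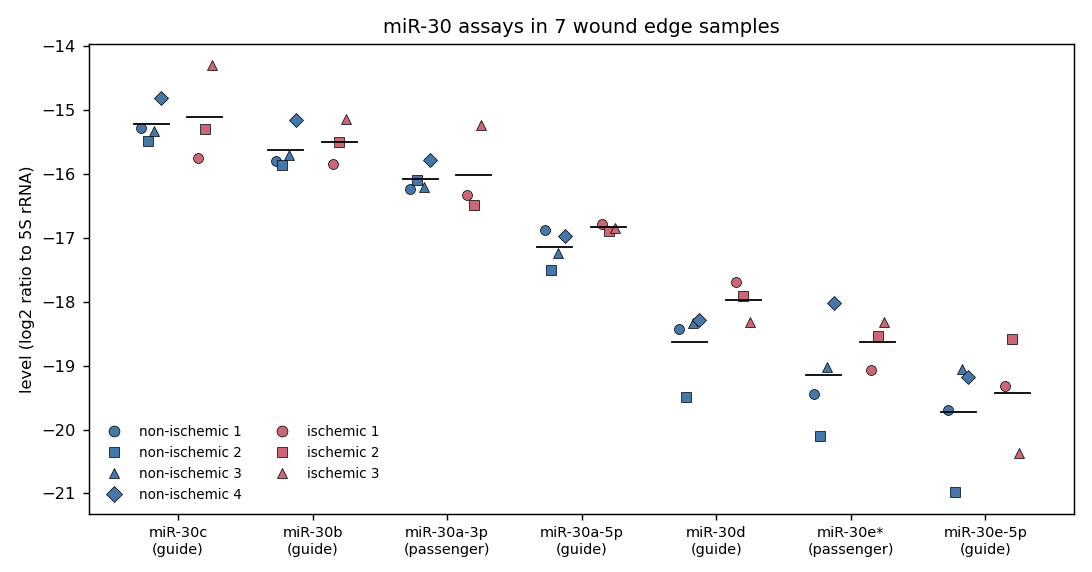
Level of each miR-30 assay as the log2 ratio to 5S rRNA (vertical axis) in 4 non-ischemic (blue) and 3 ischemic (red) samples, with symbols for the sample number and black lines for group means. Assays run from the highest mean, miR-30c, to the lowest, miR-30e-5p, and the groups overlap in all 7.

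Among the guides, miR-30c was at 25.3, 21.9, 24.4 and 34.8 ppm in non-ischemic samples 1 to 4 and at 18.1, 24.9 and 49.6 ppm in ischemic samples 1 to 3. Its highest and its lowest reading were both ischemic, so the groups overlapped. miR-30b, encoded beside miR-30d, was at 17.6, 16.9, 18.8 and 27.4 ppm in non-ischemic and 17.1, 21.6 and 27.7 ppm in ischemic samples. The 2 samples that were high for miR-30b, non-ischemic sample 4 and ischemic sample 3, were also the highest for miR-30c.

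miR-30a-5p was at 8.34, 5.38, 6.50 and 7.80 ppm in non-ischemic and 8.90, 8.27 and 8.52 ppm in ischemic samples. Its SD of the log2 level over all 7 samples, 0.26, was the smallest of the guides. Its range, 1.65-fold, was close to the 1.64-fold of miR-30b. The ischemic samples lay close together near the top of the non-ischemic range, overlapping it through non-ischemic sample 1. miR-30d was at 2.83, 1.36, 3.03 and 3.13 ppm in non-ischemic and 4.75, 4.08 and 3.05 ppm in ischemic samples. Ischemic samples 1 and 2 were above every non-ischemic sample for miR-30d, while ischemic sample 3 lay inside their range. miR-30e-5p, the lowest of the family, was at 1.19, 0.483, 1.84 and 1.69 ppm in non-ischemic and 1.53, 2.55 and 0.737 ppm in ischemic samples. Ischemic sample 3 was the lowest of its group for miR-30e-5p, as it was for miR-30d.

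Of the passengers, miR-30a-3p was at 13.0, 14.3, 13.2 and 17.7 ppm in non-ischemic and 12.1, 10.9 and 26.1 ppm in ischemic samples. Ischemic samples 1 and 2 were below all non-ischemic samples and ischemic sample 3 above all of them. miR-30e* was at 1.40, 0.894, 1.88 and 3.78 ppm in non-ischemic and 1.82, 2.64 and 3.07 ppm in ischemic samples. All 3 ischemic samples of miR-30e* lay within the wide non-ischemic range.

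The spread between non-ischemic samples was larger for the late assays. The SD of the log2 level was 0.21 to 0.32 (n = 4) for the 4 members with a mean Ct below 32 (miR-30a-5p, miR-30b, miR-30c and miR-30a-3p). It was 0.57 to 0.88 for the 3 above it (miR-30d, miR-30e-5p and miR-30e*). High and low samples were partly shared between members. Non-ischemic sample 2 was the lowest of its group for 6 of 7 members, all but miR-30a-3p, and non-ischemic sample 4 the highest for 5 of 7. The share of all tested miRNAs doing so was not counted. Within the group, the reference 5S rRNA had its lowest Ct in sample 2 (14.47) and its highest in sample 4 (14.83). By raw Ct, sample 2 was no longer the lowest in level for miR-30b (Ct 30.32, against 30.46 in sample 1) and miR-30c. Nor was sample 4 the highest for miR-30d (Ct 33.12, against 32.96 in sample 3) and miR-30a-3p. In non-ischemic sample 2 the control snoRNA202 had a Ct of 31.96 against 27.7 to 28.4 in the other 6 samples, and snoRNA135 one of 39.5 against 32.5 to 33.8. Any link with the low miR-30 readings was not tested.

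The comparison of ischemic with non-ischemic wound edge asked whether these levels differed between flap wounds and wounds with normal blood supply. Effects of cutting the flap and of restricted blood flow cannot be told apart here. No member passed the test. All 7 had a higher mean in ischemic samples, by 1.04-fold for miR-30a-3p to 1.58-fold for miR-30d, but the groups overlapped for 7 of 7 members. In limma over 103 miRNAs (detected in 3 or more samples), their adjusted p ran from 0.475 to 0.947. Over all tested miRNAs, 0% were called at an adjusted p of 0.05 and 18.4% had an unadjusted p under 0.05, against 0 of 7 members (smallest unadjusted p 0.151, limma). Groups did not overlap for 17.5% of tested miRNAs, and for 4.85% with ischemic samples higher.

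A higher mean was found for 23.3% of tested miRNAs. The median log2 difference was 0.30 over the members and -0.35 over all tested miRNAs. The log2 difference was largest for miR-30d, at 0.66 ± 0.42 (SE, n = 4 and 3), with a 95% interval from -0.29 to 1.62 and an adjusted p of 0.475 in limma. That interval runs from 1.23-fold lower to 3.07-fold higher. miR-30e* followed at 0.51 ± 0.52, then miR-30a-5p at 0.31 ± 0.34 and miR-30e-5p at 0.30 ± 0.60. miR-30b stood at 0.13 ± 0.37, miR-30c at 0.11 ± 0.43 and miR-30a-3p at 0.060 ± 0.41. All 7 intervals held 0, and their upper ends, from 0.97 for miR-30b to 1.69 for miR-30e*, are log2 differences that these samples leave within the error. In the authors' deposited table, which divides arithmetic group means of the ratio, the fold ran from 1.10 for miR-30b to 1.53 for miR-30d.

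**Figure D2:**
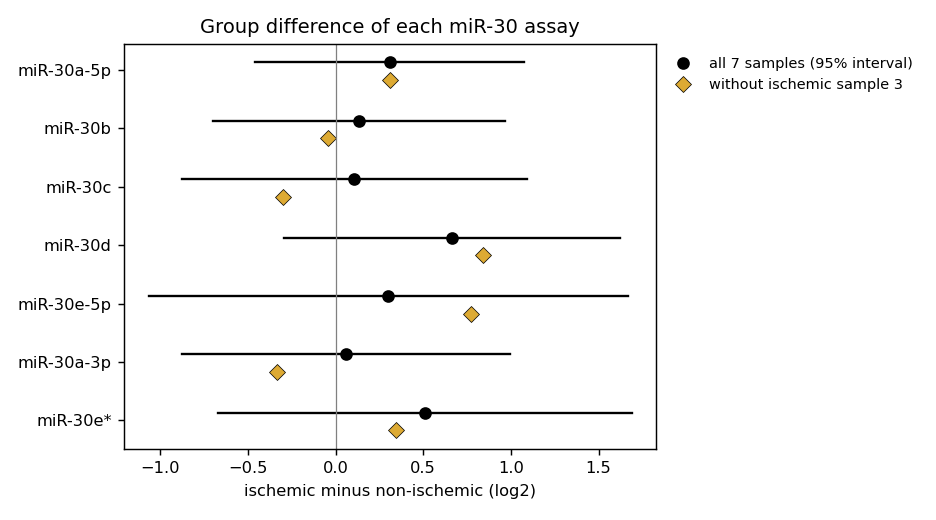
Ischemic minus non-ischemic log2 level of each miR-30 assay (horizontal axis), with its 95% interval from limma over all 7 samples (black) and the difference without ischemic sample 3 (yellow). All 7 intervals hold 0, and miR-30b, miR-30c and miR-30a-3p fall below 0 without that sample.

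Without ischemic sample 3, 4 of 7 members had a higher mean, against 43.7% of tested miRNAs, and 0 of 7 passed an adjusted p of 0.05, against 7.77%. miR-30d was at 0.84 ± 0.44 (SE) and miR-30e-5p at 0.77 ± 0.57, with adjusted p of 0.284 and 0.480 in limma. miR-30a-5p kept its value, at 0.31, and miR-30e* was at 0.35. The direction turned for miR-30c (-0.30 ± 0.37), miR-30a-3p (-0.34 ± 0.34) and miR-30b (-0.042 ± 0.37). miR-30e-5p turned to -0.12 when either non-ischemic sample 2 or ischemic sample 2 was left out.

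After global mean normalization, which sets each sample's mean over 76 miRNAs to a common value, all 7 members had a higher mean, against 48.5% of tested miRNAs. After global median and quantile normalization all 7 members were higher too, as were 70 and 54 of the 103 tested miRNAs. Under global mean normalization the differences ran from 0.40 for miR-30a-3p to 0.998 for miR-30d. miR-30d had an unadjusted p of 0.0200 there, as 14.6% of tested miRNAs had one under 0.05, and an adjusted p of 0.229 in limma. The members with an unadjusted p under 0.05 were miR-30d and miR-30a-5p after global median normalization, against 13.6% of tested miRNAs, and miR-30d after quantile normalization, against 16.5%. With global mean normalization and without ischemic sample 3, 5 of 7 members had a higher mean, against 54.4%, and 0 of 7 passed an adjusted p of 0.05, against 6.80%. There miR-30d, at 1.11 ± 0.34 (SE), had an unadjusted p under 0.05, as 26.2% of tested miRNAs did, and an adjusted p of 0.0833 in limma, while miR-30c and miR-30a-3p turned to -0.034 and -0.068. Over all 7 samples, global mean normalization moved the median of all tested miRNAs from -0.35 to -0.019, and relative to the median the 5S-based difference of miR-30d was 1.02 and that of miR-30a-3p 0.41.

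In each ischemic sample the members lay apart from each other relative to the non-ischemic mean. On the log2 scale they ran from -0.53 (miR-30c) to 0.95 (miR-30d) in ischemic sample 1. In ischemic sample 2 they ran from -0.41 (miR-30a-3p) to 1.14 (miR-30e-5p). In ischemic sample 3 miR-30c was 1.90-fold higher (0.92 on the log2 scale), miR-30a-3p 1.80-fold (0.85) and miR-30e* 1.78-fold (0.83). miR-30b was at 0.49, miR-30d at 0.31 and miR-30a-5p at 0.30, whereas miR-30e-5p was 1.57-fold lower, at a Ct of 34.9 near the limit of 35. Ischemic sample 3 had a median deviation of -0.53 over the 103 tested miRNAs and 0.49 over the members. For 4 of 7 members (miR-30a-5p, miR-30b, miR-30c and miR-30a-3p) it was above all non-ischemic samples, against 19.4% of tested miRNAs, and for no member below all of them, against 47.6%. It was only just above for miR-30b (27.7 ppm, against 27.4 in non-ischemic sample 4) and miR-30a-5p (8.52 ppm, against 8.34 in non-ischemic sample 1). These are readings of 1 sample, with no test.

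**Figure D3:**
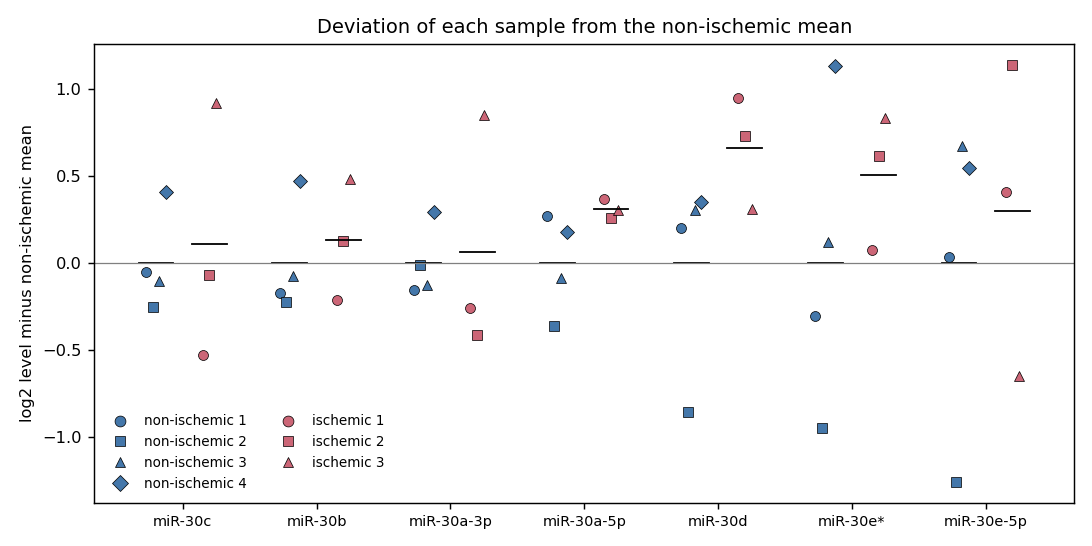
Log2 level of each sample minus the non-ischemic mean of the assay (vertical axis), blue for non-ischemic and red for ischemic samples, with black lines for group means. Ischemic sample 3 (red triangle) is the highest ischemic sample for miR-30c, miR-30b, miR-30a-3p and miR-30e* and the lowest for miR-30d and miR-30e-5p.

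Markers of muscle and of leukocytes also stood apart in this sample, and those of keratinocytes less so. Those of red cells summed above the non-ischemic range in all 3 ischemic samples. The summed reading of the 4 skeletal muscle miRNAs (miR-1, miR-133a, miR-133b and miR-206, all below Ct 35 in every sample) was 159 to 212 ppm in non-ischemic samples and 241, 405 and 875 ppm in ischemic samples 1 to 3. That of the 3 leukocyte miRNAs (miR-223, miR-142-3p and miR-142-5p) was 3093 to 4826 ppm in non-ischemic samples, 2977 and 4445 ppm in ischemic samples 1 and 2, and 145 ppm in ischemic sample 3. The 7 keratinocyte miRNAs summed to 27.5 to 51.4 ppm in non-ischemic samples and to 26.0, 19.2 and 27.8 ppm in ischemic samples 1 to 3, so that ischemic sample 3 lay within the non-ischemic range. The 2 erythroid miRNAs summed to 0.309 to 1.74 ppm in non-ischemic samples and to 7.60, 3.57 and 5.14 ppm in ischemic samples 1 to 3. Only 1 of 3 leukocyte, 3 of 7 keratinocyte and 0 of 2 erythroid miRNAs were below Ct 35 in every sample. The sums of these lists therefore include readings past that limit. The part of these cell types in the miR-30 readings was not tested. Of 8 tested members of a list of other miRNAs known to restrain matrix genes (miR-26, miR-29, miR-133 and miR-200 forms), 0 passed the adjusted threshold in limma and 3 had an unadjusted p under 0.05 (miR-133a and miR-133b, with higher means, and miR-200b, with a lower one), where 18.4% of all tested miRNAs did. In that list 2 had a higher and 6 a lower mean, with a median difference of -0.33 beside -0.35 over all tested miRNAs. miR-133a and miR-133b of that list are also muscle markers.

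The ratio of guide to passenger within a sample does not depend on the reference RNA. On both precursors the passenger assay read higher than the guide assay in 7 of 7 samples. The log2 ratio of miR-30a-5p over miR-30a-3p was -0.64, -1.42, -1.02 and -1.19 in non-ischemic and -0.44, -0.39 and -1.61 in ischemic samples, so that the passenger read 1.94-fold higher on average. Ischemic samples 1 and 2 had the ratios nearest to 0 and ischemic sample 3 the one farthest from it. For miR-30e the log2 ratio was -0.24, -0.89, -0.025 and -1.16 in non-ischemic and -0.25, -0.054 and -2.06 in ischemic samples. Here too ischemic sample 3 was the lowest, with the passenger 4.17-fold above the guide, while ischemic samples 1 and 2 lay within the non-ischemic range. In ischemic sample 3 the guide had a Ct of 34.9, close to the limit of 35. A constant difference in yield between the assays of a pair would shift the ratio in every sample alike, so ratios are compared between samples and not with 0. A difference in efficiency per cycle would shift it by an amount that varies with Ct, which was not tested.

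No difference between groups passed the test for either arm ratio. That of miR-30a was 0.25 higher in ischemic samples, at -0.82 ± 0.69 (SD, n = 3) against -1.07 ± 0.33 (n = 4, exact permutation p = 0.514). That of miR-30e was 0.21 lower, at -0.79 ± 1.11 (n = 3) against -0.58 ± 0.53 (n = 4, exact permutation p = 0.743). All tests of ratios were two-sided over 35 splits, so that the smallest p was 0.0286, and after adjustment over the 5 ratios compared every p was 0.8286. Without ischemic sample 3 both arm ratios were higher in ischemic samples, by 0.65 for miR-30a (exact permutation p = 0.133, n = 2 and 4) and by 0.43 for miR-30e (exact permutation p = 0.4), where 15 splits allow no p below 0.0667. In ischemic sample 3 the ratio lay -0.55 from the non-ischemic mean for miR-30a and -1.48 for miR-30e. It lay at -0.59 and 0.63 for the 2 other precursors with both arms detected in all samples, miR-140 and miR-126, which are too few to place it.

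**Figure D4:**
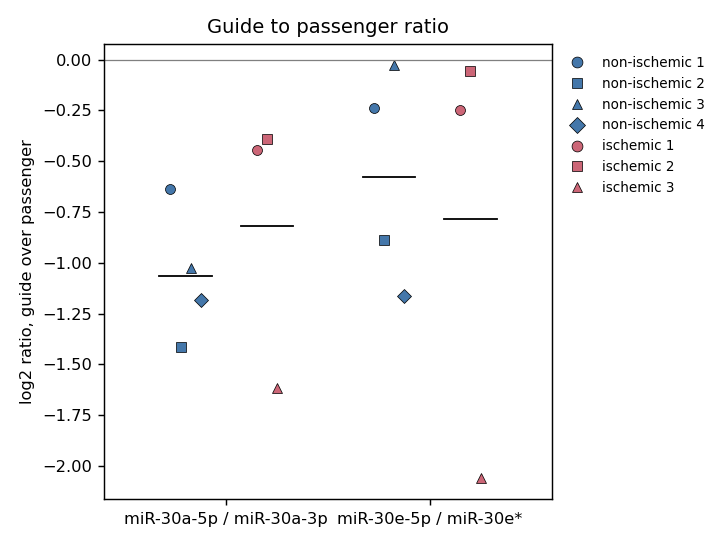
Log2 ratio of guide over passenger (vertical axis) for miR-30a and miR-30e in non-ischemic (blue) and ischemic (red) samples, with black lines for group means. All ratios are below 0, and ischemic sample 3 (red triangle) is the lowest for both precursors, at -1.61 and -2.06.

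Guides from neighbouring genes were compared in the same way. The log2 ratio of miR-30b over miR-30d was 2.63, 3.63, 2.63 and 3.13 in non-ischemic and 1.84, 2.40 and 3.18 in ischemic samples. Ischemic samples 1 and 2 were below all non-ischemic samples and ischemic sample 3 was not. The mean was 0.53 lower in ischemic samples (2.48 ± 0.67, SD, n = 3, against 3.01 ± 0.48, n = 4, exact permutation p = 0.286), and 0.88 lower without ischemic sample 3 (exact permutation p = 0.133).

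miR-30a-5p over miR-30c was at -1.60, -2.03, -1.91 and -2.16 in non-ischemic and -1.02, -1.59 and -2.54 in ischemic samples. The difference of 0.20 did not exceed the spread (exact permutation p = 0.600, n = 4 and 3). It was 0.61 without ischemic sample 3 (exact permutation p = 0.0667, the smallest that 15 splits allow, adjusted p = 0.222 over the 5 ratios), and -0.14 without ischemic sample 1. Without ischemic sample 3 the groups nearly met, with ischemic sample 2 at -1.591 and non-ischemic sample 1 at -1.598. miR-30e-5p over miR-30c was at -4.41, -5.51, -3.72 and -4.36 in non-ischemic and -3.56, -3.29 and -6.07 in ischemic samples. In ischemic sample 3 miR-30e-5p was near the detection limit, at a Ct of 34.9. The group difference of this ratio was 0.19 (exact permutation p = 0.8286, n = 4 and 3), and 1.08 without ischemic sample 3 (exact permutation p = 0.2). It turned to -0.14 when non-ischemic sample 2 was left out, and to -0.18 and -0.32 when ischemic samples 1 and 2 were. In all 3 ratios ischemic sample 3 lay on the side of more miR-30b or miR-30c, and ischemic samples 1 and 2 on the other side of the non-ischemic mean. The ratios of miR-30a-5p and miR-30e-5p share miR-30c, so they are not separate readings. For miR-30b over miR-30d, ischemic sample 3 (3.18) lay within the non-ischemic range of 2.63 to 3.63.

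**Figure D5:**
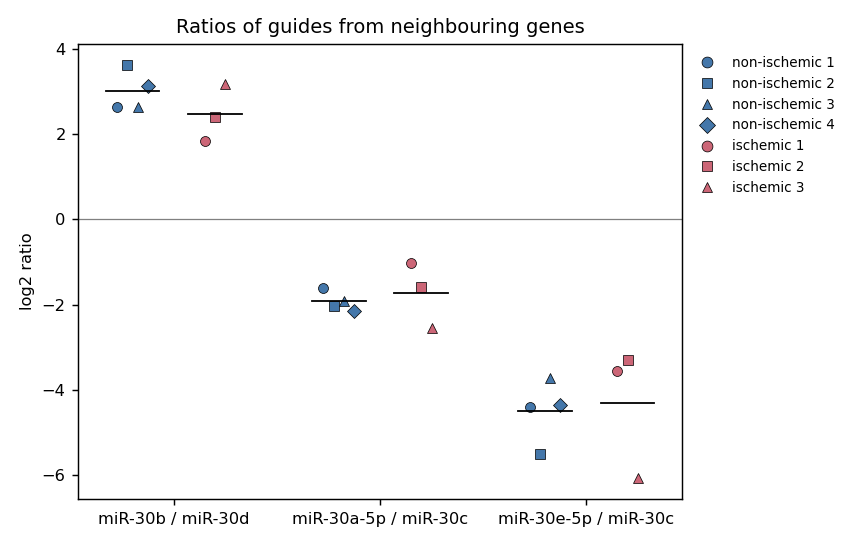
Log2 ratio (vertical axis) of guides encoded by neighbouring genes in non-ischemic (blue) and ischemic (red) samples, with black lines for group means. Ischemic sample 3 (red triangle) is the highest ischemic sample for miR-30b over miR-30d and the lowest for miR-30a-5p and miR-30e-5p over miR-30c.

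Likeness between profiles was measured as the root mean square (RMS) difference of log2 levels over 7 samples, each assay centred on its own mean. The most alike members were miR-30c and miR-30a-3p, at 0.20, which differ in seed and arm, and miR-30b and miR-30c, at 0.22. Without ischemic sample 3 their order turned, with the 2 guides miR-30b and miR-30c at 0.14 and miR-30c and miR-30a-3p at 0.21. miR-30a-5p was at 0.44 from its own passenger (0.38 without that sample). miR-30e-5p and miR-30e* were at 0.70 (0.43 without it), and the least alike were miR-30e-5p and miR-30a-3p, at 1.02 (0.85 without it). miR-30b and miR-30d, from neighbouring genes, were at 0.54 (0.56 without it). Of the 6 members detected in all samples, 3 (miR-30b, miR-30c and miR-30d) had another member as the nearest of 75 miRNAs, but 0 of 6 did without ischemic sample 3. Beside the members, the miRNAs nearest to the mean profile of 4 guides (those detected in all samples) were miR-125a at 0.22, miR-182 at 0.23 and miR-434-3p at 0.24, out of 70. Without ischemic sample 3 miR-434-3p remained the third, at 0.14, while miR-182 and miR-125a stood in places 8 and 10, behind miR-222 and miR-19b at 0.13 each. These distances depend on the spread of each assay and on ischemic sample 3.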

How the data were processed

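Groups and replicate numbers came from the sample titles. Per the labels' protocols, the miRVana kit was used for RNA, of which 500 ng went into reverse transcription with looped primers, and PCR was run on a 7900HT instrument in plates of 384 wells. The authors deposited raw Ct values, which are used here as a score with 40 where no product was seen. They also deposited log2 levels, found here to equal the 5S rRNA Ct minus the assay Ct for 315 of 316 assays within 0.0001 cycles, and the linear ratio, 2 to that power, with group means and fold. The software behind Ct was not given in the sources used here. A set of 7 columns that repeat the 5S rRNA Ct was not used. No molecule counts exist, so precision rests on the spread between samples.

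A miRNA was tested where its Ct was below 35 in 3 or more samples, which left 103. Their deposited log2 levels were fitted in R 4.3.3 using limma 3.58.1 (two-sided moderated test from eBayes), with a threshold of 0.05 on p adjusted over all 103 by Benjamini-Hochberg. Ratios within samples were compared by exact permutation tests. All members were named, with the 3 detected miRNAs nearest to the guides' profile, and marker lists beside results they move with. Members, lists and tests were chosen with earlier results of these data known. Other normalizations, filters, treatments of late Ct, a variance model, left-out samples and a replicate block were tried.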

Additional observations from a re-analysis of the deposited data

Results flagged for a closer look

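miR-30d in non-ischemic sample 2 was at -19.5 on the log2 scale against 5S rRNA (1.36 ppm), far below the other 3 non-ischemic samples at 2.83 to 3.13 ppm. Its gap to the nearest sample was 0.88 of the range of the group. Chance gives a gap past the cut-off used here in about 1 in 20 groups, and 1 of the 12 values and ratios examined in the non-ischemic group was past it. All come from the same samples, and the ratios from the same members, so they are not separate readings. Without that sample the log2 difference of miR-30d between groups was 0.38, against 0.66 with it.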

How the results depend on the processing

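No member passed an adjusted p of 0.05 in limma under any of the alternatives run. miR-30a-5p, miR-30d and miR-30e* kept a higher ischemic mean in all 19 alternatives, though not all of these could change it. The filters, late Ct set to 35 and the variance model left these differences unchanged. The replicate block gave the same differences as leaving out non-ischemic sample 4. Without non-ischemic sample 2 miR-30e* was at 0.1911, miR-30a-5p at 0.1893 and miR-30d at 0.38, and without non-ischemic sample 4 miR-30e* was at 0.88. All 7 members had a higher mean against 5S rRNA, and 4 did after snoRNA normalization, where miR-30b was at -0.022, miR-30c at -0.049 and miR-30a-3p at -0.096. Without snoRNA202 in that reference, chosen after seeing the data, 7 did. With samples left out in turn the count ran from 4 to 7, and the differences from -0.042 to 0.31 for miR-30b, -0.30 to 0.43 for miR-30c, -0.34 to 0.30 for miR-30a-3p and -0.12 to 0.77 for miR-30e-5p. Over all miRNAs limma called 0, 1 after global median and 1 after quantile normalization, and 0 to 8 with samples left out, the 8 without ischemic sample 3. With global mean normalization and without ischemic sample 3, a combination chosen after seeing the data, limma called 7, and miR-30c was at -0.034 and miR-30a-3p at -0.068. With samples left out the miR-30a arm ratio ran from 0.037 to 0.65, that of miR-30e from -0.57 to 0.43, miR-30e-5p over miR-30c from -0.32 to 1.08, miR-30a-5p over miR-30c from -0.14 to 0.61 and miR-30b over miR-30d from -0.88 to -0.21. The cause of these changes was not tested. Setting late Ct to 35 or using linear ratios turned no ratio. An arm ratio of miR-30c was not run, as 1 form was used. The filter on Ct below 35 in all samples left out miR-30e-5p.

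The shared replicate numbers are not said to pair samples. Deviations of same-numbered samples correlated at -0.21 to 0.028, and 0 of 3 ischemic samples correlated best with their own number. With the replicate number as a block, non-ischemic sample 4 was left out, as no ischemic sample shares its number. In that fit limma called 0 miRNAs and 7 members had a higher mean. The differences of the members were the same as on leaving out that sample without a block. Paired differences of the miR-30a and miR-30e arm ratios were 0.21 and -0.40.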
